A study of Homo sapiens with 6 samples.

Results

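The BCL2 family decides whether a cell keeps its mitochondria intact, and 10 of its genes were followed here in ONS-76 cells after knockdown of the histone demethylase KDM1A. They are the survival genes BCL2A1, MCL1, BCL2 and BCL2L1, the BH3-only genes BCL2L11, BIK, BBC3, PMAIP1 and BMF, and the effector gene BAX. A gene was followed through every probe set that the array annotation assigns to that gene alone. This gave 28 of 54613 probe sets and 9 of the 10 genes. BBC3, which encodes PUMA, has a probe set that it shares with the microRNA genes MIR3190 and MIR3191, so it is not counted among the members.

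ONS-76 cells are a human line derived from a medulloblastoma, a tumor of the cerebellum. Of the 6 Affymetrix U133 Plus 2.0 arrays, 3 held RNA of cells transfected with 1 siRNA against KDM1A (siKDM1A a, b and c) and 3 that of mock cells given only the transfection reagent (control a, b and c). The transfections were described as separate. The sample labels place the harvest 48 h after knockdown, and a later time is stated elsewhere. Since the control cells received no siRNA, loss of KDM1A and delivery of an siRNA cannot be told apart in any difference below, and whether other siRNAs act alike was not tested. The sample labels call the target KDM5A, with LSD1, the former name of KDM1A, beside it. KDM1A itself was 9.33-fold lower in siKDM1A cells (log2 6.30 ± 0.05 in siKDM1A and 9.52 ± 0.04 in control cells, SD over 3 arrays each, limma adjusted p = 7.1e-07), whereas KDM5A did not pass on any of its 5 probe sets. Values are RMA log2 values, in which 1 unit is a 2-fold step, and the array medians lay between 5.09 and 5.16. VIM, a mesenchymal and neural cytoskeleton gene, was bright in both groups (12.90 and 13.03), and the blood cell marker PTPRC was dim (3.90 and 3.83 on its brightest probe set). OTX2, a marker of other medulloblastoma types, was dim as well (2.90 and 2.92). On their brightest probe sets the neural marker NES (5.47 and 5.39) and GLI2 (4.95 and 4.85) lay close to the array medians. MYC was bright (10.71 and 10.86). EPCAM, a marker of other cells, was dim (3.22 and 2.98). PECAM1, another such marker, was not dim on its brightest probe set (6.93 and 6.59), which was higher in siKDM1A cells (limma adjusted p = 0.035). The other PECAM1 probe sets did not pass. A lower level in bulk RNA can come from fewer cells that express a gene or from less RNA per cell, and these cannot be told apart.

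As background, the survival proteins of this family hold the effector proteins BAX and BAK in check at the outer mitochondrial membrane. BH3-only proteins are the stress sensors of the family. Each uses a short helix, the BH3 domain, to occupy the groove of the survival proteins or to switch on the effectors, which then perforate the membrane and release cytochrome c. Because many members act by binding one another, the balance between classes is usually considered rather than any single level.

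Survival genes that changed after KDM1A knockdown rose, and BH3-only genes changed in both directions. Of the 15 probe sets of survival genes 4 rose and 11 did not pass, so that 0 fell. Of the 13 probe sets of BH3-only and effector genes 2 rose, 2 fell and 9 did not pass. Among all probe sets of the array 2.18% rose and 3.73% fell, or 5.91% in all, by the same test (limma with Benjamini-Hochberg adjustment over 54613 probe sets, threshold 0.05). The log2 difference, siKDM1A minus control, was positive on 14 of the 15 survival probe sets and on 5 of the 13 others, against 53.5% of all probe sets. Its median was 0.27 over the survival probe sets and -0.12 over the BH3-only and effector ones, against 0.01 over all probe sets. BCL2L11 alone supplied 7 of those 13 BH3-only and effector probe sets. On the brightest probe set of each gene the median was 0.37 over 4 survival genes and 0.21 over 5 BH3-only and effector genes. The difference was then positive for all 4 survival genes and for 3 of the 5 others, against 51.7% of all genes. Probe sets of 1 gene report RNA of the same gene and are not independent, the genes were chosen with results in view, and the difference between the classes was not tested. With the brightest probe set standing for each gene, BCL2A1, BCL2L1 and BIK rose, BCL2L11 fell and 5 genes did not pass, where 3.45% of all genes rose and 5.46% fell, or 8.92% in all. One-way ANOVA with the same adjustment called 1.24% of all probe sets, and 1 of the 28, that of BCL2A1.

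**Figure D1:**
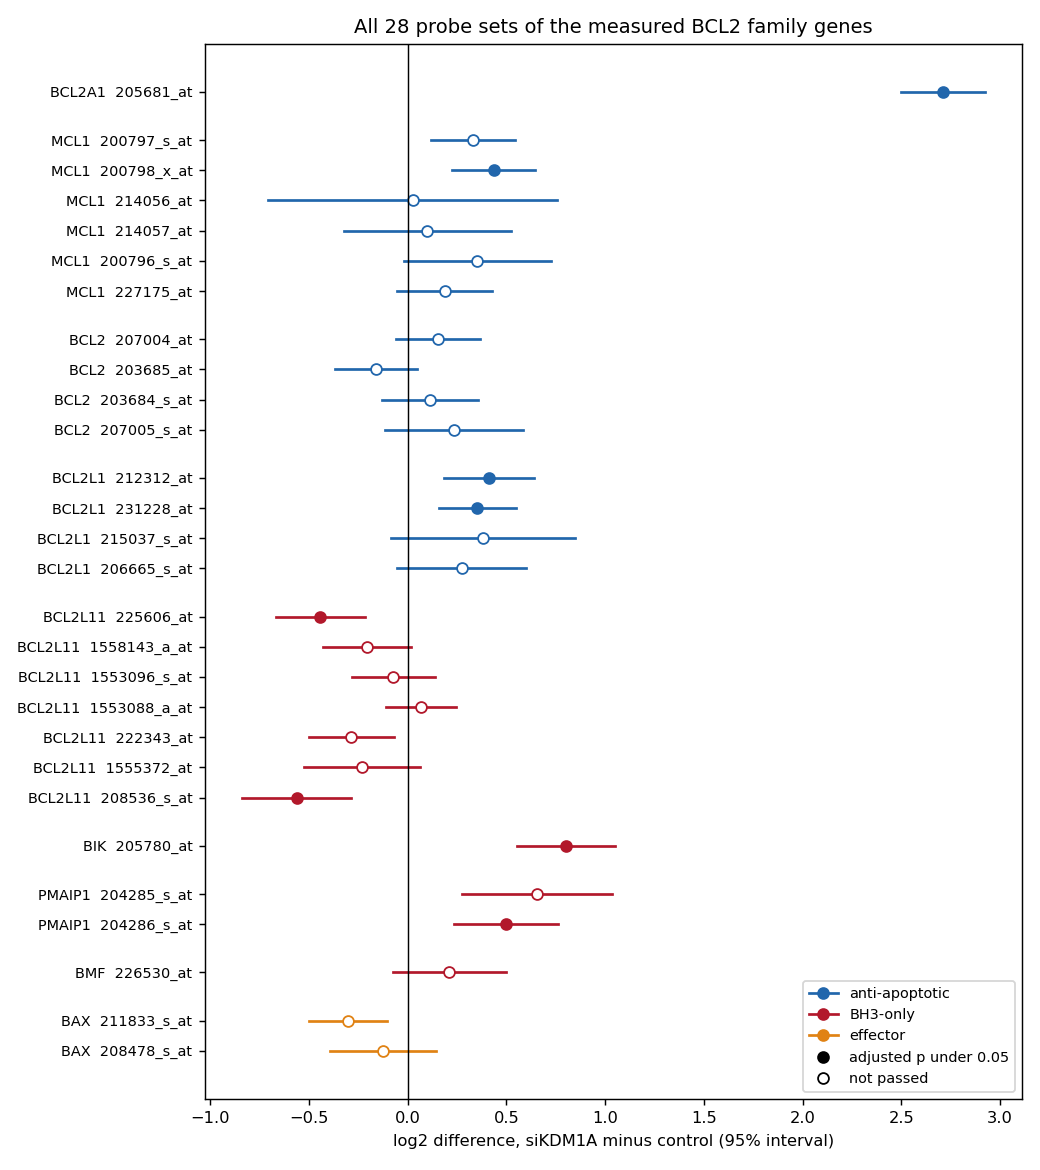
Log2 difference (siKDM1A minus control, x axis) of each of the 28 member probe sets, 1 row each, with the 95% limma interval as a line. Filled points have a limma adjusted p below 0.05, open points a higher one. BCL2A1 lies at 2.71, apart from all others, which lie between -0.56 and 0.80.

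BCL2A1 encodes BFL1 (also called A1), a survival protein that is best known in blood cells as a product of NF-kB signaling. Its 1 probe set read 5.51, 5.74 and 5.70 in siKDM1A a, b and c, against 2.95, 2.86 and 2.99 in control a, b and c. The 3 siKDM1A arrays thus lay more than 2 log2 units above every control array, and the spread within each group was small (SD 0.12 in siKDM1A and 0.07 in control cells). The log2 difference was 2.71 (standard error 0.09, 95% interval 2.50 to 2.92, limma adjusted p = 4.4e-06), a 6.55-fold rise. BCL2A1 was picked with this rise already known. In control cells the gene lay in the dim range, under lower array quartiles of 3.63 to 3.70. No detection call was made, so the fold depends on how RMA treats dim probe sets. The call held in all 12 alternative settings, ANOVA included (ANOVA adjusted p = 0.0175), with log2 differences from 2.67 to 2.78.

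The genes whose brightest probe set followed that of BCL2A1 most closely over the 6 arrays were TGFBR2, a TGF-beta receptor, GDF15, a stress cytokine, XDH, which encodes xanthine dehydrogenase, the cytokine gene IL6 and PKIA, an inhibitor of protein kinase A. Pearson's r was between 0.998 and 0.999 for all 5. All 5 were higher in siKDM1A than in control cells, with log2 differences of 0.83, 1.18, 1.52, 0.74 and 1.05. With 2 groups of 3 arrays such an r mostly records a tight step between the groups, and it is given as a description.

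The promoter of BCL2A1 is shown because this gene moved most. The sequence below runs from 250 bases before to 50 bases after the RefSeq start site, 5′ to 3′ on the gene's strand (GRCh38.p14). Capitals mark TATAAA, the letters of the TATA box, which start 70 bases before the start site. They also mark TGATGCAA, the composite element bound by CHOP or ATF4 with C/EBP proteins, which starts 63 bases before it. Whether TATAAA serves as a TATA box at this distance was not tested.
BCL2A1 promoter, chr15:79971147-79971446, minus strand: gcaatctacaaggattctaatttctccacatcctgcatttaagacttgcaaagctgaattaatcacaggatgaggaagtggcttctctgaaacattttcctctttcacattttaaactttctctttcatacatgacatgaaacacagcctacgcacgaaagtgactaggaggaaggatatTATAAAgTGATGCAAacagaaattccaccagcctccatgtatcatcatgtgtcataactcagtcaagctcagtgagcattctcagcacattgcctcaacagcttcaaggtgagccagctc
TGATGCAA on either strand occurs in 0.866% of 35116 promoters of the same length and TATAAA in 11.5%. Among the member genes TATAAA also occurs in a promoter of BCL2L1. The NF-kB consensus motif, which 11.3% of the 35116 promoters hold, has no match in this window. Sequence outside the window was not searched. All motifs were chosen after the sequences had been read. A match is a string of letters and no evidence of binding, which was not measured.

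**Figure D2:**
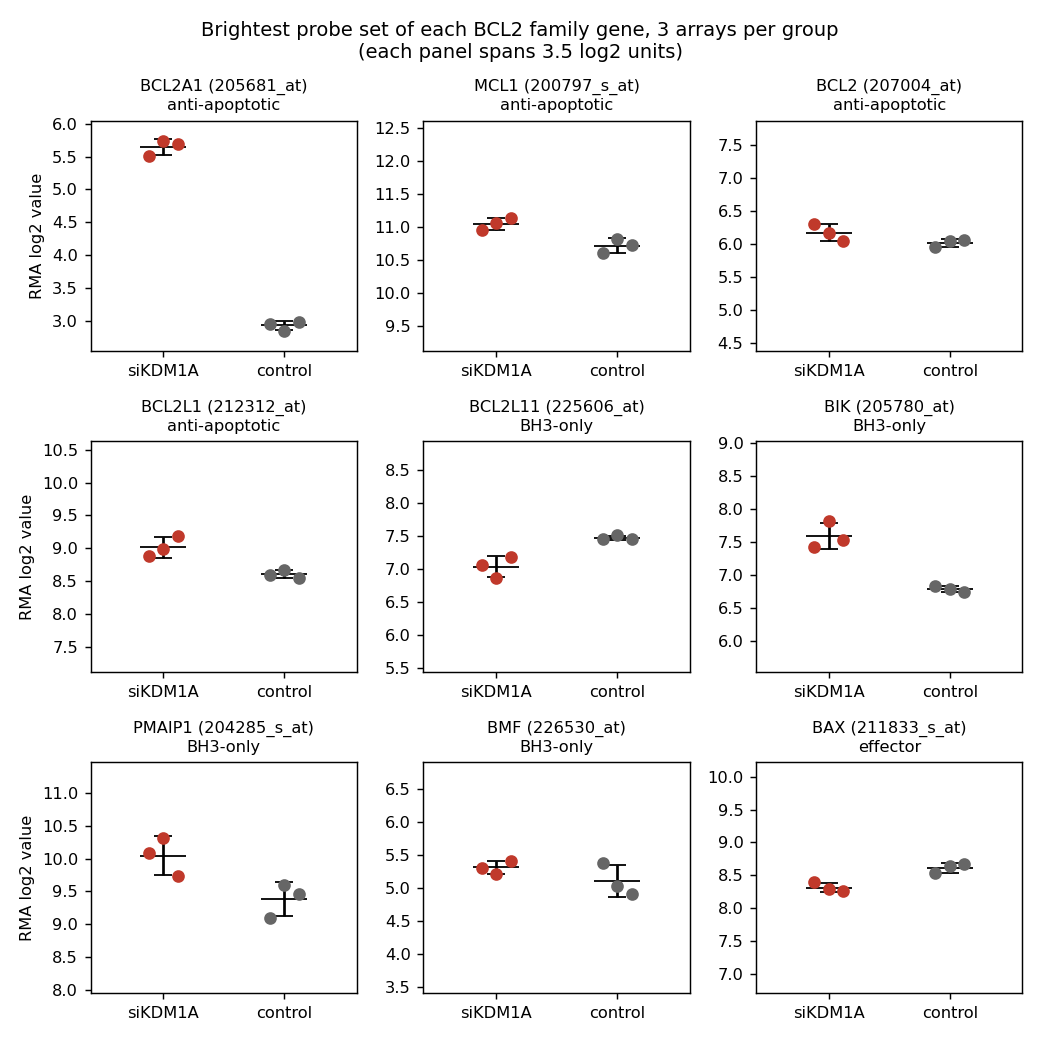
RMA log2 value (y axis) of the brightest probe set of each measured gene on the 3 siKDM1A (red) and 3 control (grey) arrays; black bars give the mean and SD, and every panel spans 3.5 log2 units. The groups do not overlap for BCL2A1, MCL1, BCL2L1, BCL2L11, BIK, PMAIP1 and BAX, and they overlap for BCL2 and BMF.

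MCL1 encodes a short-lived survival protein that many tumor cells depend on. It has 6 probe sets, and the log2 difference was positive on all of them (0.03 to 0.44) but passed on 1. That probe set, 200798_x_at, read 10.53, 10.66 and 10.47 in siKDM1A cells, against 10.01, 10.18 and 10.16 in control cells. All siKDM1A arrays lay above all control arrays, with a log2 difference of 0.44 (standard error 0.09, limma adjusted p = 0.026), or 1.35-fold. The brightest probe set, 200797_s_at, read 10.95, 11.06 and 11.13 in siKDM1A cells, against 10.60, 10.82 and 10.73 in control cells. The groups did not overlap here either, and its log2 difference of 0.33 missed the threshold (limma adjusted p = 0.083). The call of 200798_x_at held when siKDM1A replicate c was left out and was lost when any other array was (limma adjusted p from 0.062 to 0.098). The dim probe sets 200796_s_at and 227175_at had log2 differences of 0.35 and 0.19 and did not pass. On 214056_at siKDM1A c, at 5.58, stood apart from siKDM1A a and b (6.85 and 7.12), and the same array was lowest on 214057_at (5.32, against 6.04 and 6.10 in siKDM1A a and b).

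BCL2L1 encodes BCL-XL, a survival protein that is also known to keep neurons alive. Of its 4 probe sets 2 rose and 2 did not pass, and all 4 log2 differences were positive (0.27 to 0.41). The brightest, 212312_at, read 8.88, 8.99 and 9.19 in siKDM1A cells, against 8.60, 8.67 and 8.55 in control cells, a log2 difference of 0.41 (standard error 0.10, limma adjusted p = 0.047) or 1.33-fold. The second, 231228_at, read 7.35, 7.33 and 7.34 in siKDM1A cells, against 6.88, 7.05 and 7.03 in control cells, with a log2 difference of 0.35 (standard error 0.09, limma adjusted p = 0.045). Neither pair of groups overlapped, and both calls lay close to the threshold. The call of 212312_at held without siKDM1A replicate a and was lost without any other array (limma adjusted p from 0.089 to 0.19), and that of 231228_at was lost without any 1 of the 6 arrays (0.083 to 0.15) and after median centring (0.067). On 215037_s_at and 206665_s_at the groups overlapped, and control a was the lowest array on both (5.21 and 5.27).

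BCL2, the founding member of the family, did not pass on any of its 4 probe sets. On the brightest, 207004_at, it read 6.30, 6.17 and 6.05 in siKDM1A cells, against 5.95, 6.05 and 6.06 in control cells. The groups overlapped, and the log2 difference of 0.16 had a 95% interval of -0.06 to 0.37. The log2 differences were -0.16 on 203685_at, 0.11 on 203684_s_at and 0.23 on 207005_s_at. Over the 4 intervals the lowest bound was -0.37 and the highest 0.59.

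BIK, a BH3-only gene whose protein sits largely at the endoplasmic reticulum, had the largest difference among the genes that oppose survival. Its 1 probe set, 205780_at, read 7.42, 7.81 and 7.53 in siKDM1A cells, against 6.83, 6.79 and 6.74 in control cells. All siKDM1A arrays lay above all control arrays, with siKDM1A b the highest. The log2 difference was 0.80 (standard error 0.11, 95% interval 0.55 to 1.05, limma adjusted p = 0.0035), or 1.74-fold. The call held without any 1 array (limma adjusted p between 0.0061 and 0.025) but not under ANOVA (ANOVA adjusted p = 0.087).

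PMAIP1 encodes NOXA, a BH3-only protein that binds MCL1 above all and promotes its degradation. Both of its probe sets were higher in every siKDM1A array than in any control array. The brighter, 204285_s_at, read 10.08, 10.32 and 9.73 in siKDM1A cells, against 9.10, 9.60 and 9.47 in control cells, and had a log2 difference of 0.65 with a standard error of 0.17, which missed the threshold at a limma adjusted p of 0.056. On 204286_s_at the values were 9.79, 9.97 and 9.63 in siKDM1A cells, against 9.31, 9.44 and 9.14 in control cells. There the log2 difference of 0.50 was smaller, as was its standard error of 0.12, and it passed (limma adjusted p = 0.039). The call of 204286_s_at held without siKDM1A replicate c and was lost without any other array (limma adjusted p from 0.057 to 0.17), and it was lost after median centring (0.052). The brighter probe set passed without siKDM1A replicate c (limma adjusted p = 0.027).

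BCL2L11 encodes BIM, which binds all survival proteins and can activate BAX directly. It was the member that fell, on 2 of its 7 probe sets, while 5 did not pass. The log2 difference was negative on 6 of the 7. The brightest, 225606_at, read 7.06, 6.86 and 7.18 in siKDM1A cells, against 7.46, 7.51 and 7.46 in control cells, with a log2 difference of -0.44 (standard error 0.10, limma adjusted p = 0.032). The dimmest, 208536_s_at, read 3.80, 3.71 and 3.86 in siKDM1A cells, against 4.08, 4.43 and 4.54 in control cells, with a log2 difference of -0.56 (standard error 0.12, limma adjusted p = 0.029). The groups did not overlap on either probe set. Each call was lost in most fits with 1 array left out. Such fits also called fewer probe sets over the array (694 to 1563 lower, against 2037). In them the log2 difference ran from -0.52 to -0.36 on 225606_at and from -0.70 to -0.47 on 208536_s_at. The call of 225606_at held without siKDM1A replicate c and was lost without any other array (limma adjusted p from 0.074 to 0.12), and it was lost after cyclic loess (0.064). That of 208536_s_at held without control replicate a and was lost without any other array (limma adjusted p from 0.052 to 0.13). Of those that did not pass, 1558143_a_at, 1553096_s_at, 222343_at and 1555372_at had log2 differences of -0.21, -0.07, -0.28 and -0.23. The remaining one, 1553088_a_at, read 6.58, 6.58 and 6.62 in siKDM1A cells, against 6.54, 6.51 and 6.53 in control cells, a log2 difference of 0.07 (95% interval -0.11 to 0.25). BCL2L11 RNA is known to be spliced into several forms, and which form each probe set detects was not examined.

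**Figure D3:**
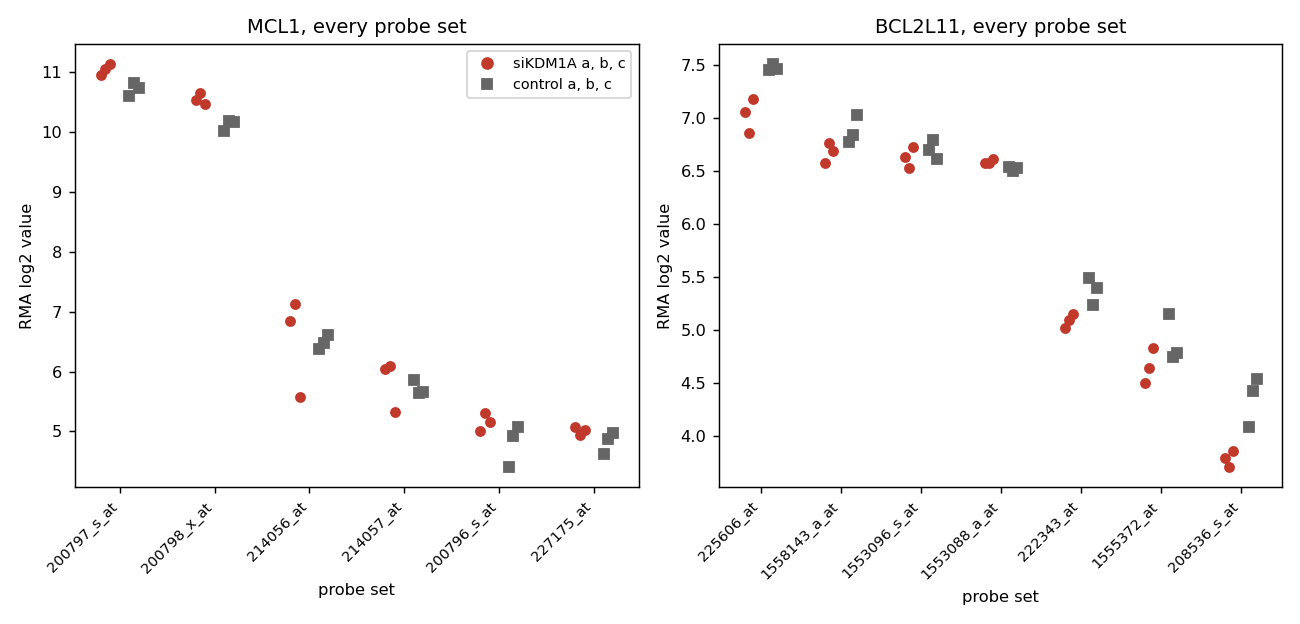
RMA log2 value (y axis) of every probe set (x axis, brightest at left) of MCL1 and of BCL2L11 on the 3 siKDM1A (red circles) and 3 control (grey squares) arrays. For MCL1 the 2 brightest probe sets separate the groups and siKDM1A c drops to 5.58 on 214056_at; for BCL2L11 the siKDM1A arrays lie below the control arrays on 225606_at, 1558143_a_at, 222343_at and 208536_s_at.

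BMF, a BH3-only gene whose protein is tethered to the actin motor complex, and BAX did not pass. BMF read 5.31, 5.21 and 5.41 in siKDM1A cells, against 5.37, 5.02 and 4.90 in control cells on its 1 probe set, 226530_at. Control a lay among the siKDM1A arrays, and the log2 difference was 0.21 (95% interval -0.08 to 0.50). BAX, one of the proteins that form the pore, read 8.40, 8.29 and 8.26 in siKDM1A cells, against 8.53, 8.64 and 8.68 in control cells on 211833_s_at. The siKDM1A arrays lay below the control arrays there, and the log2 difference of -0.30 did not reach the threshold (95% interval -0.50 to -0.10, limma adjusted p = 0.086). Its other probe set, 208478_s_at, overlapped between the groups (log2 difference -0.12). The shared probe set of BBC3, 211692_s_at, read 6.32, 5.93 and 6.25 in siKDM1A cells, against 6.33, 6.37 and 6.20 in control cells, and overlapped as well (log2 difference -0.13, limma adjusted p = 0.60).

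The groups did not overlap on 15 of the 28 member probe sets, 9 of them higher and 6 lower in siKDM1A cells, or 53.6% against 24.5% of all probe sets (11.1% higher and 13.4% lower). Of the 20 member probe sets that did not pass, 16 had a 95% interval that included 0. Standard errors ran from 0.08 to 0.33, the largest being that of 214056_at. Whether the probe sets of 1 gene differed in their response was tested on the difference between each further probe set and the brightest one within every array. Of 19 such pairs in the member genes none passed (limma with adjustment over 21316 pairs of all genes, of which 2.72% passed), and 3 had an unadjusted p under 0.05. The closest were 1553088_a_at and 1553096_s_at of BCL2L11, whose differences were less negative than that of 225606_at by 0.51 and 0.37 (standard error 0.11 and 0.10, limma adjusted p = 0.054 and 0.11). The third was 203685_at of BCL2 (-0.32, limma adjusted p = 0.20).

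The promoters of BCL2L11 and PMAIP1 are shown beside that of BCL2A1 because called probe sets of these genes moved in opposite directions. Each sequence also holds a match to a known motif. These matches are strings of letters too, and binding was not measured. RefSeq rows were found for 8 of the 10 genes. In the first, capitals mark GTAAACA, the forkhead (FOXO) motif, 223 bases before the start site. In the second they mark the reverse complement of TGACGT, the core of the cAMP response element bound by CREB and ATF proteins, 56 bases before it. All coordinates are GRCh38.p14.
BCL2L11 promoter, chr2:111120664-111120963, plus strand: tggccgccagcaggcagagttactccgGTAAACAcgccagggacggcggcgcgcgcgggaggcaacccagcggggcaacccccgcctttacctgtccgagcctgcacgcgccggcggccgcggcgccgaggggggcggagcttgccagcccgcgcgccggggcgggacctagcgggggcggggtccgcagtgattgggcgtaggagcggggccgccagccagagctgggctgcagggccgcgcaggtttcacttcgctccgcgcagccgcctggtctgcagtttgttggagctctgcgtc
PMAIP1 promoter, chr18:59899746-59900045, plus strand: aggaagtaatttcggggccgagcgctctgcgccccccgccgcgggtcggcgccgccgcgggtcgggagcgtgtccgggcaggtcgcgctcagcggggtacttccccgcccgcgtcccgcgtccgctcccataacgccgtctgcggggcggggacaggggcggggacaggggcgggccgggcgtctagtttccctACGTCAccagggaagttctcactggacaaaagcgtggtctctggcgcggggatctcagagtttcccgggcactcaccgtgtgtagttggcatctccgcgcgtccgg
GTAAACA on either strand occurs in 3.42% of all promoters of this length and TGACGT in 7.98%. Among the 10 promoter rows of the members, BCL2L11 alone holds GTAAACA and PMAIP1 alone TGACGT. The AP-1 motif TGAGTCA, held by 4.95% of promoters, occurs in 1 of the 10 rows, that of BBC3. The E-box CACGTG, held by 7.26% of promoters, occurs in 2 of the 10 rows, those of BBC3 and BAX.

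Transcription factors and regulators known to act on the family included genes that changed in both directions. On the brightest probe set 5 of the 17 measured genes rose and 2 fell, and the other 10 missed the threshold (median log2 difference 0.06). By the same measure 3.45% of all genes rose and 5.46% fell. Genes of this and the next lists were chosen with earlier results of these data known. JUN, a part of AP-1 that can induce BCL2L11 in neurons, read 10.97, 10.96 and 10.92 in siKDM1A cells, against 9.55, 9.55 and 9.54 in control cells (log2 difference 1.40, limma adjusted p = 4.4e-05). It rose on all 4 of its probe sets. FOXO3, which activates BCL2L11, read 8.89, 8.97 and 8.84 in siKDM1A cells, against 9.64, 9.39 and 9.44 in control cells (log2 difference -0.59, limma adjusted p = 0.0075). Its other 3 probe sets did not pass. TP73, a relative of the p53 gene, fell by 1.34 in log2 units on the brighter of its called probe sets (limma adjusted p = 0.0011), with 5.90, 6.05 and 6.35 in siKDM1A cells, against 7.70, 7.25 and 7.37 in control cells. TP73 did not pass on 1554379_a_at (limma adjusted p = 0.24).

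The NF-kB subunit genes NFKB2 and RELB, which belong to the noncanonical branch, rose with log2 differences of 0.60 and 0.43 (limma adjusted p = 0.0064 and 0.043). NFKB2 did not pass on its dimmer probe sets 211524_at and 207535_s_at (log2 differences 0.15 and 0.09). Its call was lost under ANOVA (ANOVA adjusted p = 0.073). NFKB1, RELA and REL did not pass, with log2 differences of 0.06, -0.25 and 0.07. The stress genes DDIT3, which encodes CHOP, and TRIB3, a pseudokinase, rose with log2 differences of 0.37 and 0.32 (limma adjusted p = 0.039 and 0.047). The calls of RELB, DDIT3 and TRIB3 were lost after median centring (limma adjusted p = 0.056, 0.062 and 0.071). Those of RELB and TRIB3 were also lost without any 1 array (0.051 to 0.14 and 0.071 to 0.16), and that of DDIT3 without any array but siKDM1A replicate c (0.096 to 0.14). CEBPB, a C/EBP factor, had a log2 difference of 0.34 and ATF4 one of 0.11, and neither passed (limma adjusted p = 0.056 and 0.52).

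Among the 40 probe sets of the rest of the BCL2 family 1, of BNIP3L, passed, against 5.91% of all probe sets. Of 14 further family genes 0 passed on the brightest probe set, against 8.92% of all genes, with a median log2 difference of -0.03. The survival genes BCL2L2 and BCL2L10 had log2 differences of -0.15 and 0.26, and the effector genes BAK1 and BOK of 0.18 and -0.12. The BH3-only genes BAD, BID and HRK had log2 differences of -0.04, 0.14 and 0.09. BNIP3L, a mitophagy receptor related to the family, had a log2 difference of -0.35 with a limma adjusted p of 0.067 on the brightest probe set and on another fell by 0.39 (limma adjusted p = 0.035). That call was lost without any 1 array (0.054 to 0.15). Of 18 genes for binding partners and turnover, among them the 14-3-3 genes that hold BAD and the ubiquitin ligase genes HUWE1 and FBXW7 that act on MCL1, none passed on the brightest probe set (median log2 difference -0.01). On a dimmer probe set each, BAG1, a BCL2-binding co-chaperone, fell by 0.75 and DYNLL2, the light chain that tethers BMF, by 0.36 (limma adjusted p = 0.0014 and 0.034), while their other probe sets did not pass. The call of BAG1 held without any 1 array, and that of DYNLL2 held only without siKDM1A replicate c (0.078 to 0.12 without another array). Of 6 genes for proteins that act from the mitochondrion after permeabilization, such as CYCS, which encodes cytochrome c, and DIABLO, none passed (median log2 difference -0.06). At the share of 8.92% of all genes, lists this small would hold few calls or none, so the absence of calls does not set them apart.

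**Figure D4:**
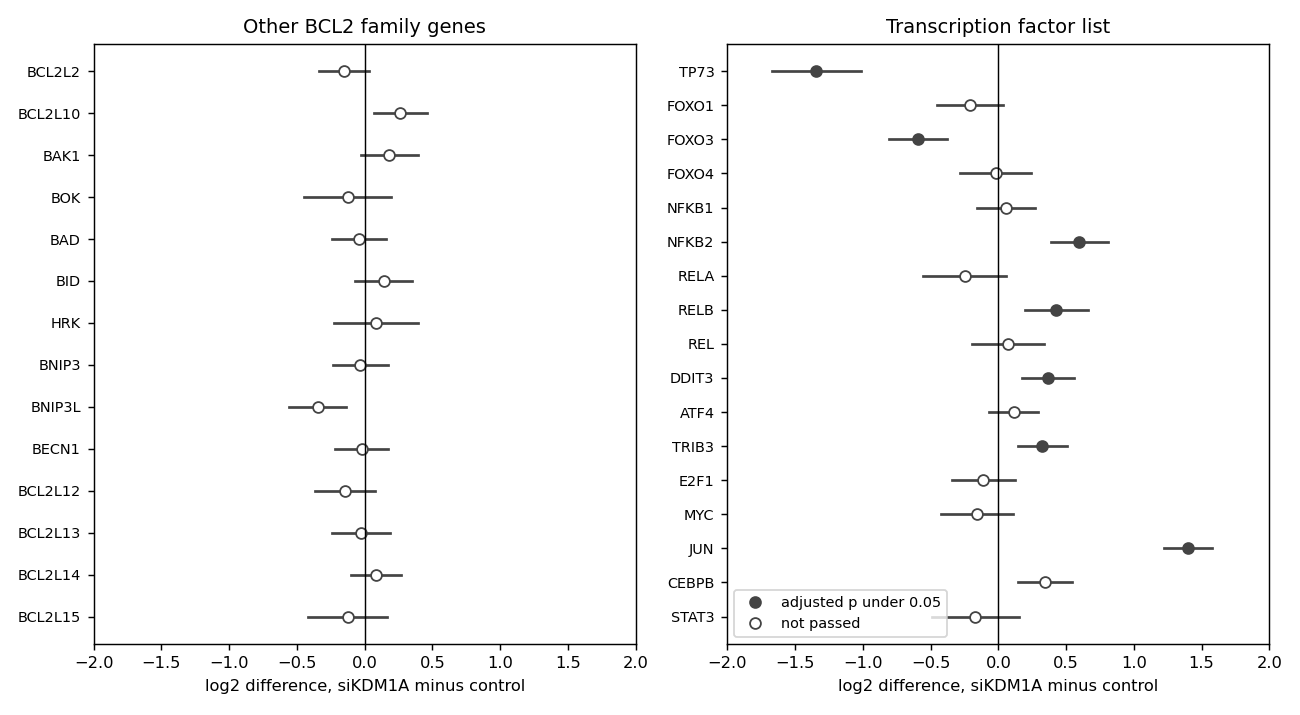
Log2 difference (siKDM1A minus control, x axis) of the brightest probe set of each of 14 further BCL2 family genes (left) and of 17 transcription factors and regulators (right), with the 95% limma interval as a line; filled points have a limma adjusted p below 0.05. No filled point appears at left, and at right JUN lies at 1.40 and TP73 at -1.34.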

How the data were processed

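Expression in ONS-76 cells was measured on 6 Affymetrix U133 Plus 2.0 arrays, 3 siKDM1A and 3 control. The authors deposited log2 values, computed by RMA in Partek Genomics Suite (version not stated here). RMA equalizes the probe intensities of the arrays before it summarizes them, which can hide a change shared by most genes.

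The deposited log2 values of 54613 probe sets (62 Affymetrix controls left out) were compared between siKDM1A and control cells by limma 3.58.1 under R 4.3.3 (lmFit, eBayes, two-sided), and p-values were adjusted by Benjamini-Hochberg over all probe sets. The test sets each difference against the spread between these transfections, which limma moderates with the spread of all probe sets. Depth does not apply to arrays, and 3 per group limit the precision. Groups follow the treatment label. Probe sets were named from the platform annotation, 41091 of them by 1 gene. Members, lists and motifs were chosen with earlier results of these data known. Every measured member was described with all its probe sets; of other lists, genes that passed, with further genes picked in view of their values. Of 67 listed genes 64 had a probe set of their own. Promoters came from RefSeq. The alternatives tried were 2 other scalings (cyclic loess, median centring), removal of dim probe sets, limma's trend and robust options, a replicate block, omission of single arrays, one-way ANOVA as in the study, and other choices of probe set. The procedure was tested on simulated data.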

Additional observations from a re-analysis of the deposited data

How the results depend on the processing

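All log2 differences of the member probe sets that passed kept their sign in every alternative, and those of BCL2A1 also kept the call. The number of member probe sets that rose was 6, against 1 by ANOVA and 2 to 5 when 1 array was left out. It was also smaller with the replicate block, without _x_at and _s_at probe sets, and after median centring. Median centring lost the calls of PMAIP1 204286_s_at (adjusted p = 0.052) and BCL2L1 231228_at (0.067). The number was larger after cyclic loess, the filter on dim probe sets or the trend. The number that fell was 2; it was 1 after cyclic loess, 1 with the replicate block, 1 without _x_at and _s_at probe sets, 0 by the ANOVA and 0 to 1 when 1 array was left out. The number of member probe sets that differed from the brightest was 0, and 1 with an intensity trend and robust prior. Over the array, 1193 probe sets rose and 2037 fell, against 275 and 401 by the ANOVA, 609 to 1103 and 694 to 1563 when 1 array was left out. Of other BCL2 family genes 0 fell, against 1 after the filter on dim probe sets, with the trend, or when any probe set counted; of partner genes 2 fell when any probe set counted. Of the transcription factor list 5 rose, against 2 after median centring, 2 with the replicate block, 2 by the ANOVA and 2 to 3 when 1 array was left out; 2 fell, against 0 by the ANOVA. For MCL1 200797_s_at and PMAIP1 204285_s_at the test was passed after cyclic loess, the filter or the trend, and for BAX 211833_s_at after the filter. The share of lower calls over the array, 63.1%, was 70.0% after median centring and 54.8% after cyclic loess. Deviations from the group mean correlated at 0.11, 0.23 and -0.13 between arrays of the same letter. Between arrays of different letters the correlations ran from -0.32 to 0.18. The sign varied in both sets, and the letters were not taken as pairs in the main test. With the replicate block the calls of BCL2L11 225606_at (adjusted p = 0.061), BCL2L1 212312_at (0.078) and 231228_at (0.078), RELB (0.067), DDIT3 (0.073), TRIB3 (0.087), BNIP3L 221479_s_at (0.075) and DYNLL2 229106_at (0.069) were lost. After cyclic loess those of BNIP3L (0.059) and DYNLL2 (0.068) were lost as well. The causes of these changes were not tested. With 3 arrays per group and no detection call, differences of the size of those of BCL2L1, MCL1 and BCL2L11 lie at the limit of this test.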
